A study of Mus musculus with 18 samples.

Results

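The outermost exon bins of mouse genes, the stretches of exon that lie at the start and the end of each annotated gene, were examined in RNA from neurons of the entorhinal cortex in which Ptbp1 had been raised or targeted for silencing. An exon bin is a piece of a gene's merged exons within which every annotated transcript either holds all of the sequence or none of it. For each gene with an identifier of its own and at least 5 bins, the bins with the lowest and the highest number were taken, and a bin was kept when its mean was at least 10 counts over the 9 libraries of the overexpression experiment. This gave 9316 bins of 355320 in all, from 7443 genes, of 33426 outermost bins before the count minimum. By the annotated strand, 2130 lay at the 5′ end of their gene and 7157 at the 3′ end, and 29 had no strand. Of 16581 outermost bins at each end, the minimum thus kept far fewer at the 5′ end. Near the minimum, 140 members had a mean less than 0.5 counts above it, and 127 outermost bins with a mean less than 0.5 counts below it were not members.

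The study injected mice with vectors that the labels name only by their cargo, and isolated RNA by TRAP (translating ribosome affinity purification), which recovers mRNA on the tagged ribosomes of a chosen cell population. The overexpression experiment had 4 libraries from mice given a control-mcherry vector and 5 given a Ptbp1-mcherry vector. The silencing experiment had 5 libraries from mice given a scrambled shRNA vector and 4 given a Ptbp1 shRNA vector, both with mcherry. Each library came from 1 mouse with both entorhinal cortices pooled, so the replicates were separate animals. A mouse of the control vector and a mouse of the Ptbp1 shRNA group had been left out by the submitters for lack of mcherry reads. Mouse strain, age and the means by which ribosomes were tagged are not in the labels, which list the tissue as hippocampus while the title and design name the entorhinal cortex. The neuronal list (Rbfox3, Snap25, Syt1, Slc17a7, Camk2a and Reln, summed) took 18820 to 68070 CPM (of all bin counts) over the 18 libraries, the astrocyte list 325 to 809, the interneuron list 175 to 359, the oligodendrocyte list 53.3 to 162, the vessel list 0 to 16.0 and the microglial list 0 to 12.5. Because the samples are bulk RNA, fewer cells of a type and less RNA per cell cannot be told apart.

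Ptbp1 encodes polypyrimidine tract binding protein 1, which binds pyrimidine-rich RNA next to exons and represses or promotes their use. Beside cassette exons, such proteins act on alternative last exons and on poly(A) site choice, and these decide which 3′ end, and sometimes which C-terminus, a gene's mRNA carries. Alternative promoters in turn set the 5′ outermost bins. Ptbp1 itself had 9.79 to 17.7 CPM (of gene counts) in the control vector libraries and 118 to 155 after overexpression, and 0.0951 to 14.1 over the 9 silencing libraries, where the scrambled and Ptbp1 shRNA groups overlapped. The range was 0.344 to 7.86 CPM with the scrambled shRNA and 0.0951 to 14.1 with the Ptbp1 shRNA. A lower Ptbp1 level was thus not found in the libraries labelled Ptbp1 shRNA. Every direction drawn from those libraries below rests on the label. Total bin counts were 13199116 to 28462193 in the overexpression experiment and 24364560 to 32699039 in the silencing experiment.

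The finding that turns on sequence was at Cdc42, a small GTPase that shapes the actin cytoskeleton. Its gene has a pair of alternative last exons on chromosome 4, minus strand, that encode different C-termini: bin 1 is the outermost one (mm10, chr4:137319696-137321192), and bin 2 (chr4:137321762-137322619) is the last exon known from brain Cdc42. The coding bases of both are shown 5′ to 3′ because reads in them tell the isoforms apart. They were read from GENCODE M21 transcripts, and capitals mark the last 4 codons, which encode the lipid-modified tail, and the stop codon.

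Cdc42 bin 1 (chr4:137321103-137321192): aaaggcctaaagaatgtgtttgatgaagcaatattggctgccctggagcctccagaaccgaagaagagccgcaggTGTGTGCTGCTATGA
Cdc42 bin 2 (chr4:137322530-137322619): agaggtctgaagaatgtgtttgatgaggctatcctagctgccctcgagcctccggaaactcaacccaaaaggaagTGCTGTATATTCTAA

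The coding stretches were 90 bases each and matched at 59 of 90 positions, and at 4 of the 12 bases in the last 4 codons. The remainder of each bin is 3′ untranslated sequence. Ptbp2, the neuronal paralog of Ptbp1, is also on the minus strand. Its bin 1 (chr3:119718742-119720460) holds the end of the coding sequence, shown with the stop codon in capitals because this exon took a smaller share of Ptbp2 reads after overexpression.

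Ptbp2 bin 1 (chr3:119720328-119720460): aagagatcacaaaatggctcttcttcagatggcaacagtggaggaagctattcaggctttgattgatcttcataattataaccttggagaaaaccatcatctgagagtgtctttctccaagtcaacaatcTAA

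Of all member bins, 7781 had coordinates in mm10, and 1686 overlapped another annotated gene. The 3′ members were long, with a median of 1217 bp, against 252 bp at the 5′ end and 116 bp for inner bins with the same count minimum. Among 5987 members at the 3′ end with coordinates, 3594 held part of the coding sequence, 2291 were non-coding sequence of coding genes and 1 was wholly coding. At the 5′ end 1073 of 1794 held part of the coding sequence and 643 were non-coding. The hexamer AATAAA, the commonest poly(A) signal, was searched for in the strand of the gene over the last 50 bases of transcripts ending at the edge of the bin. It was present for 65.9% of the 3′ members and 60.8% of all 13890 outermost 3′ bins with coordinates, and AATAAA or ATTAAA for 80.9% and 74.7%. Ptbp2 bin 1 held AATAAA and Cdc42 bin 1 ATTAAA.

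After overexpression of Ptbp1, 4 outermost bins were called as changed in relative usage, all at the 3′ end: those of Cdc42, Dtna and Pknox2 rose and that of Ptbp2 fell. The Pknox2 call rested on few reads and was lost in several settings given below. None of the 4 was called when all 18 libraries shared 1 estimate of the spread. Relative usage is the log2 change of a bin beyond that of its gene, tested with edgeR's diffSpliceDGE over all bins and adjusted by the Benjamini-Hochberg method at 0.05. Of 8416 members tested, 4 were called (0.0475%), beside 40 of 117580 bins over the whole table (0.034%), so outermost bins were called at a share near that background. None of the 2046 members tested at the 5′ end was called. An unadjusted edgeR p under 0.05 was found for 44 of them (2.15%), against 1.58% at the 3′ end. The median SE was 0.30 at the 5′ end and 0.19 at the 3′ end. Calls were thus not shown to be particular to the 3′ end. Over all members tested, 145 had an unadjusted p under 0.05 (1.72%), against 1.38% of all bins. The median relative usage was 0.0454 at the 5′ end (quartiles -0.10 and 0.21) and 0.0092 at the 3′ end (quartiles -0.06 and 0.10), and 0.0046 over all bins.

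**Figure D1:**
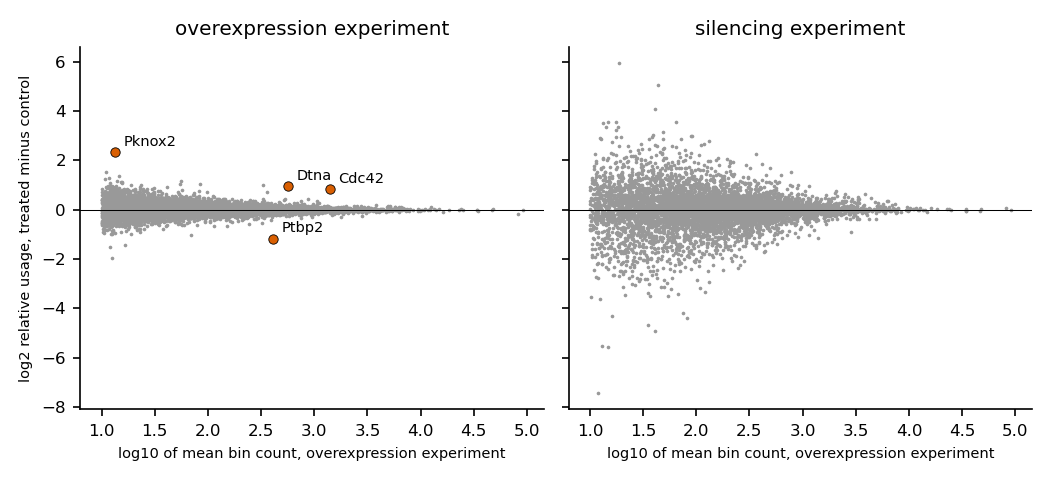
Log2 relative usage (treated minus control) of every tested outermost bin against the log10 of its mean count in the overexpression experiment, for the overexpression (left) and silencing (right) experiments. Grey points are bins and orange points the 4 bins with an edgeR adjusted p under 0.05; the silencing panel has none, and its points spread far more widely at the same count.

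In Cdc42, the outermost last exon took 12.1%, 14.5%, 13.1% and 13.8% of the gene's bin counts in the 4 control libraries. After overexpression it took 24.7%, 20.2%, 27.2%, 22.3% and 23.8%. Every treated library was above every control. The means were 13.4% ± 1.02 and 23.6% ± 2.62 (SD, n = 4 and 5), and the relative usage rose by 0.83 (SE 0.12, edgeR adjusted p = 0.000125). The brain last exon, bin 2, took 39.3% ± 3.78 and 29.8% ± 2.45 (n = 4 and 5), with every treated library below every control. Its relative usage of -0.40 did not pass in edgeR (SE 0.11, adjusted p = 1). A gene's shares have a fixed sum, so the lower share of bin 2 is in part set by the rise of bin 1. In the other 6 bins of the gene the groups overlapped, and none passed.

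Counting only the reads in these 2 bins, the outermost one held 25.5% ± 3.27 in controls (range 22.6 to 30.1) and 44.2% ± 2.13 after overexpression (41.9 to 47.5). The difference was 18.6 percentage points, with p = 0.00794 in an exact two-sided permutation test over the 9 libraries, which is the smallest p that 4 against 5 can give. This ratio was taken up after the call at bin 1 was known and in the same libraries, so it describes the call and adds no independent support. In the silencing experiment the same ratio was 29.8% ± 9.35 with the scrambled shRNA (n = 5, range 17.8 to 41.7) and 30.9% ± 10.3 with the Ptbp1 shRNA (n = 4, range 20.3 to 41.2). Those groups overlapped almost wholly (difference 1.13 percentage points, exact permutation p = 0.849). Without the 2 least evenly covered libraries of the overexpression experiment the Cdc42 call was lost, with a relative usage of 0.76 and an edgeR adjusted p = 0.0591.

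Ptbp2 is a splicing repressor that takes over from Ptbp1 as neurons mature, and its mRNA is a known target of Ptbp1. Its last exon (bin 1 of 14) took 26.8%, 33.3%, 30.7% and 39.2% of Ptbp2 bin counts in the controls. After overexpression it took 15.8%, 11.2%, 19.4%, 14.7% and 12.4%. The groups did not overlap, with means of 32.5% ± 5.21 and 14.7% ± 3.2 (SD, n = 4 and 5), and relative usage fell by 1.17 (SE 0.17, edgeR adjusted p = 4.60e-06). Behind these shares were 1594 to 2403 Ptbp2 bin counts per control library and 820 to 1865 per treated library. Under silencing vectors the bin took 12.5% to 27.6% with the scrambled shRNA and 18.6% to 37.6% with the Ptbp1 shRNA, overlapping ranges, with a relative usage of 0.52 (SE 0.44, edgeR adjusted p = 1).

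The opposite end of Ptbp2 showed higher shares. These are in part set by the lower share of bin 1, because a gene's shares have a fixed sum. The 5′ outermost bin (bin 14, chr3:119783202-119783388, holding the start of the coding sequence) took 3.52% ± 0.326 in the controls and 5.59% ± 1.96 after overexpression (n = 4 and 5). Its lowest treated library, at 3.90%, was just above the highest control, at 3.81%. The relative usage of 0.68 did not pass (SE 0.25, edgeR adjusted p = 1). Bins 11, 12 and 13, the next ones from the 5′ end, also had higher shares in every treated library, with relative usages of 0.45, 0.58 and 0.70, none of which passed in edgeR (adjusted p = 1). Their mean counts were 245.2, 153.5 and 84 in the controls and 211.2, 142 and 83.8 after overexpression. Bin 14 had mean counts of 74.75 and 73.2.

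Dtna encodes alpha-dystrobrevin, a member of the dystrophin complex beneath the plasma membrane, whose transcripts end at several alternative last exons. Its outermost bin (bin 22 of 22) took 14.9%, 15.9%, 15.5% and 15.3% in the controls. After overexpression it took 30.8%, 30.6%, 29.3%, 28.9% and 27.3%. Every treated library was above every control and the spread within groups was small, at 15.4% ± 0.379 against 29.4% ± 1.43 (SD, n = 4 and 5). Relative usage rose by 0.94 (SE 0.13, edgeR adjusted p = 2.65e-05). Outside bin 22, bins 1 to 16 except bin 12 had lower mean shares and bins 17 to 21 higher ones, none passing. A gene's shares have a fixed sum, so lower shares in other bins are in part set by the rise of bin 22. In bins 2, 11 and 14 every treated library was below every control (relative usage -0.31, -0.59 and -0.63). In bins 17 to 21 the groups overlapped (relative usage 0.37 to 0.76). Bins 15 and 16, also overlapping, had the lowest relative usage. Bin 16 took 4.40% ± 1.21 and 2.38% ± 0.377 of the gene (relative usage -0.89, edgeR adjusted p = 0.202), and bin 15 took 3.98% ± 0.962 and 2.22% ± 0.461 (-0.85, edgeR adjusted p = 0.538). Dtna bin 22 in the silencing experiment took 13.0% to 35.5% with the scrambled shRNA and 24.7% to 61.4% with the Ptbp1 shRNA. Those ranges overlapped, and the relative usage of 1.06 did not pass (SE 0.45, edgeR adjusted p = 1). Bin numbers of Dtna did not match the annotation used here, so it is given without coordinates.

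**Figure D2:**
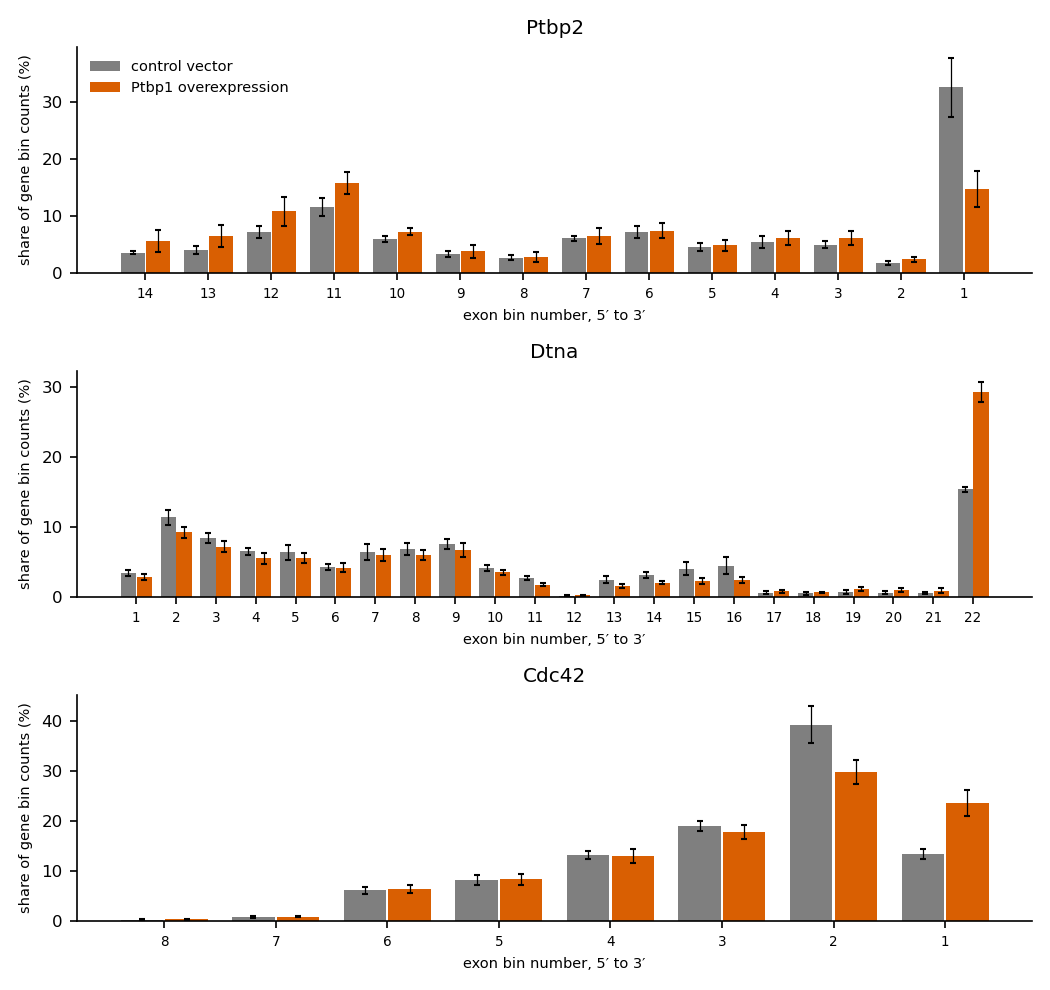
Share of the gene's bin counts (%) in each exon bin of Ptbp2, Dtna and Cdc42, ordered 5′ to 3′, for control vector (grey, n = 4) and Ptbp1 overexpression (orange, n = 5); bars are means and error bars SD. The last bin falls from 32.5% to 14.7% in Ptbp2 and rises from 15.4% to 29.4% in Dtna, and in Cdc42 bin 1 rises from 13.4% to 23.6% while bin 2 goes from 39.3% to 29.8%.

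The fourth call, Pknox2, rested on few reads. Pknox2 encodes a homeodomain transcription factor of the TALE class. Its outermost bin (bin 1 of 25) held 2, 1, 1 and 10 counts in the controls and 39, 28, 12, 21 and 7 after overexpression. The fourth control lay above the lowest treated library, at 0.721% and 0.574% of the gene. The means were 0.256% ± 0.312 and 1.30% ± 0.527 (n = 4 and 5), and relative usage rose by 2.32 (SE 0.46, edgeR adjusted p = 0.00725). Leaving out 1 library moved it between 1.93 and 3.63, the highest value being that without control replicate 4 (edgeR adjusted p = 0.000282). The call was lost in the DESeq2 model (adjusted p = 0.863), without control replicate 1 (edgeR adjusted p = 0.193), 2 (0.416) or 3 (0.112) and without overexpression replicate 1 (0.0984), and without the 2 least evenly covered libraries (0.0719). The bin had, in the silencing experiment, 4, 0, 0, 0 and 0 counts with the scrambled shRNA and 0, 74, 2 and 4 with the Ptbp1 shRNA, too few to be tested. The largest share of this gene lay in bin 3, with 39.2% ± 6.0 and 42.4% ± 3.9 of its counts.

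**Figure D3:**
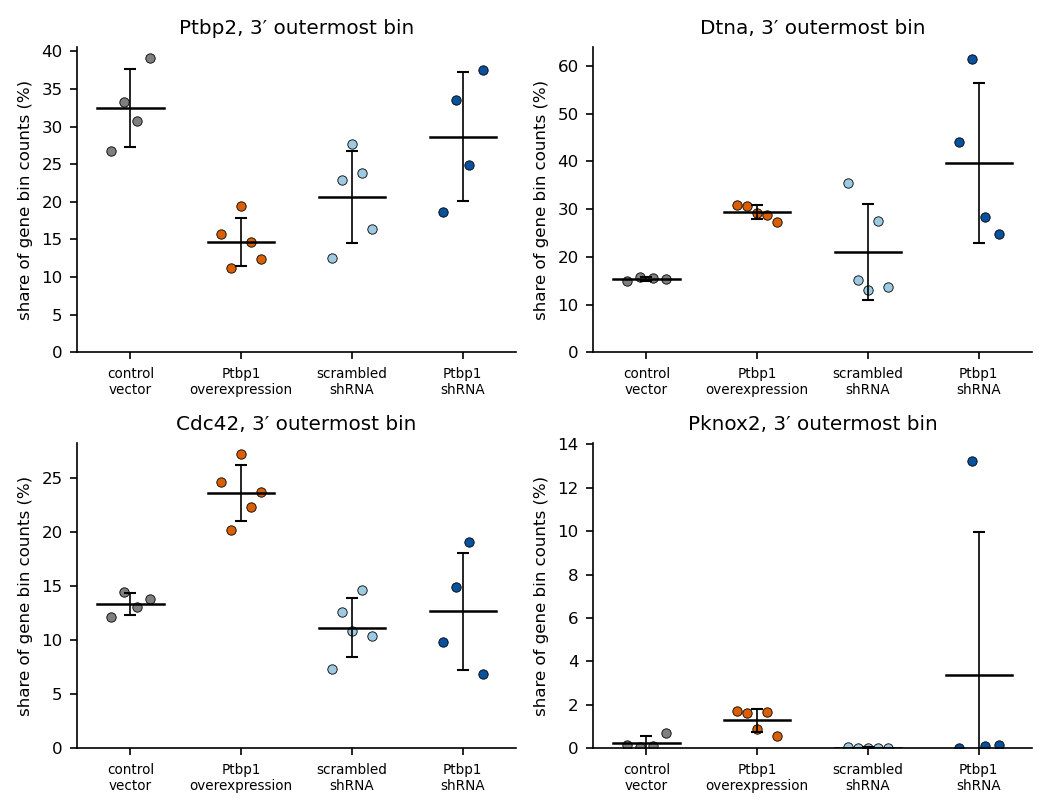
Share of the gene's bin counts (%) in the 3′ outermost bin of Ptbp2, Dtna, Cdc42 and Pknox2, 1 point per library, for the 4 groups; lines are means and error bars SD (cut at 0). In the overexpression experiment the treated and control libraries separate for Ptbp2, Dtna and Cdc42 and overlap for Pknox2, and in the silencing experiment all 4 bins overlap between groups.

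Ptbp2, Dtna and Cdc42 were called in edgeR, limma voom and the DESeq2 model, and without any 1 library, but not when all 18 libraries shared 1 estimate of the spread (edgeR adjusted p = 1). The next 6 members by p did not pass in edgeR, though 5 of them passed in some other setting. Agap3, a GTPase-activating protein for Arf proteins, was closest: bin 18 (chr5:24501397-24502047) took 9.34%, 5.72%, 7.05% and 7.62% in the controls and 12.2%, 12.6%, 11.7%, 12.9% and 11.2% after overexpression. All treated libraries were higher, and the relative usage of 0.71 had an edgeR adjusted p = 0.0539 (SE 0.12). Picking bins by small p favours groups that do not overlap, so separation in these and in the called bins adds no support. The share of all bins without overlap is not given here. It passed in the DESeq2 model (adjusted p = 0.006), in limma voom (adjusted p = 5.58e-05) and in edgeR without control replicate 1 (adjusted p = 0.00548). Inpp4b, a phosphoinositide phosphatase, took 3.24% to 5.78% in the controls and 6.84% to 13.5% after overexpression (relative usage 1.05, edgeR adjusted p = 0.0608), and passed in limma voom (adjusted p = 0.00581), in edgeR with no filter (adjusted p = 0.0289) and without overexpression replicate 5 (adjusted p = 0.0026). Snx12, a sorting nexin, took 1.16% to 2.55% and 2.98% to 5.12% (relative usage 1.16, edgeR adjusted p = 0.0612), and passed without overexpression replicate 4 (adjusted p = 0.0432) or control replicate 3 (adjusted p = 0.0435). Cadm1, a synaptic adhesion molecule, took 0.596% to 1.58% and 0.202% to 0.52%, from at most 28 counts per library (relative usage -1.98, edgeR adjusted p = 0.134), and passed in the DESeq2 model (adjusted p = 0.0133) and in edgeR without overexpression replicate 5 (adjusted p = 0.0438). Shc4, a signalling adaptor, took 0.983% to 4.09% and 0.627% to 1.58%, overlapping ranges (relative usage -1.42, edgeR adjusted p = 0.371).

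The remaining one, Plppr3 bin 1 (chr10:79860475-79861796), is uncertain because the gene overlaps Ptbp1, and no source used here says whether reads were counted by strand. Its share was 15.4% to 27.3% in the controls and 48.1% to 53.4% after overexpression, while its count went from 24 to 34 per control library to 387 to 813 per treated library (relative usage 0.98, edgeR adjusted p = 0.255). It passed in the DESeq2 model (adjusted p = 2.60e-08), in limma voom (adjusted p = 0.0015) and in edgeR with no filter (adjusted p = 2.19e-07). Reads of Ptbp1 and Plppr3 cannot be told apart there.

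The outermost bins of Ptbp1 were not members. Bin 1 at its 5′ end had 1 count over all 18 libraries, and bin 49 at its 3′ end had 0; by counting error alone, 0 counts allow an expected total of up to 3. Those of Ptbp3 (543 and 6 counts in all, 422 of the 543 in 1 library) and the 5′ bin of Mapt (mean 9 counts) were also below the minimum. Mapt, which encodes the microtubule protein tau, had its 3′ outermost bin among the members (bin 36, chr11:104328436-104332090, untranslated sequence). It took 58.0%, 40.3%, 40.3% and 42.1% in the controls and 43.5%, 35.0%, 43.3%, 48.2% and 34.5% after overexpression, overlapping ranges, with a relative usage of -0.14 (SE 0.18, edgeR adjusted p = 1). Under silencing vectors it took 49.1% to 87.2% with the scrambled shRNA and 41.2% to 76.3% with the Ptbp1 shRNA (-0.03, SE 0.54, adjusted p = 1).

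The gene lists were chosen with results of these data known, so their counts are descriptions. Of 40 textbook Ptbp1 splicing targets, 26 had a member and 32 of their bins were tested on overexpression. Dtna and Cdc42 were called higher and Ptbp2 lower, and 5 bins had an unadjusted edgeR p under 0.05, the others being Ptbp2 bin 14 and the 3′ end of the clathrin light chain Cltb. The list's median relative usage was 0.04. Among genes with textbook alternative promoters or last exons in neurons, 54 bins of 41 genes were tested, with Cdc42 the sole call. The ends of Arhgef7 (a Rac and Cdc42 exchange factor, bin 31) and of the presynaptic receptor Nrxn3 (bin 46) had an unadjusted p under 0.05, with relative usages of 0.41 and -0.67 and adjusted p = 1 in edgeR. The list's median was 0.03.

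No member was called in the other lists. Of 36 genes with long 3′ untranslated regions in neurons, 43 bins of 31 genes were tested, with 2 at an unadjusted p under 0.05 (the 5′ bins of Mef2c and Ppp3ca) and a median of 0.01. Of 46 microtubule and tau genes, 48 bins of 31 genes were tested, with 0 at an unadjusted p under 0.05 and a median of 0.0077. Over the 6 lists of cell type markers, 0 to 8 bins per list were tested on overexpression and none had an unadjusted edgeR p under 0.05. The mean oligodendrocyte level was 121 CPM in controls and 134 after overexpression, the neuronal level 24820 and 21600, the astrocyte level 527 and 486, and the microglial level 5.32 and 7.59. Their part in the results was not tested. No member of any list was called in the silencing experiment, of 27 bins tested for the Ptbp1 targets, 44 for alternative promoters and last exons, 38 for long 3′ untranslated regions and 41 for microtubule genes. Dtna bin 22 and Kif5a bin 29 had an unadjusted edgeR p under 0.05 there.

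In the silencing experiment no outermost bin passed. edgeR called 0 of 6296 members tested, with 79 at an unadjusted p under 0.05 (1.25%), beside 1 of 83164 bins over the table (0.0012%) and 1.98% of all bins at that unadjusted p. The DESeq2 model called 16 members and limma voom 2. The shares of all bins called by those tools are not given here, so these counts do not compare ends with other bins. Both unadjusted shares were lower than the 0.05 that a calibrated test gives without any effect. The spread was larger than under overexpression: the median SE of relative usage was 0.81 for members here and 0.21 in the overexpression experiment. With errors of this size, the lack of calls does not show that the ends were unchanged. The 5th to 95th percentile of relative usage ran from -1.34 to 1.2, against -0.31 to 0.39. The neuronal list took 55810 to 68070 CPM with the scrambled shRNA and 36510 to 61010 with the Ptbp1 shRNA, and its part in these values was not tested.

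None of the 10 members with the smallest p passed in edgeR within this experiment. Picking bins by small p favours groups that do not overlap, so separation among them adds no support. The share of all bins without overlap is not given here. All 10 passed in the edgeR fit in which the 18 libraries shared 1 estimate of the spread (adjusted p = 0.00177 to 0.0308), and Abcf3 (adjusted p = 0.00162), Abca5 (0.0156) and Anks1b (0.0489) in the DESeq2 model. In Abca5, a membrane transporter of the ABC family, the 3′ bin took 17.6%, 6.97%, 7.56%, 10.6% and 3.6% with the scrambled shRNA and 40.9%, 35.8%, 33.8% and 18.5% with the Ptbp1 shRNA. The groups did not overlap (relative usage 2.0, SE 0.66, edgeR adjusted p = 1). Pbdc1 was alike, with 10.4%, 4.59%, 4.9%, 8.14% and 0% against 38.6%, 46.9%, 23.8% and 22.1% (2.95, SE 0.74, adjusted p = 1). Psme4, a proteasome activator, had the smallest p, with 11.8% to 47.4% under the scrambled shRNA and 3.66% to 13.3% under the Ptbp1 shRNA, overlapping ranges (-2.42, SE 0.60, adjusted p = 0.503).

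The 10 included 3 bins at the 5′ end. Abcf3, a protein of the ABC family, had counts of 0, 0, 0, 3 and 0 with the scrambled shRNA and 19, 36, 38 and 46 with the Ptbp1 shRNA (2.79% to 8.05% of the gene, edgeR adjusted p = 0.706). Anks1b, a postsynaptic scaffold protein, took 0.199% to 1.71% and 0.0329% to 0.127% (relative usage -3.42, edgeR adjusted p = 0.752). Car11, a carbonic anhydrase-related protein, took 0.413% to 7.88% and 0% to 0.145% (-4.93, edgeR adjusted p = 1). In all 3 the groups did not overlap, which the choice by small p favours. In the remaining 4, Ndufaf4, Mfsd4a, Zfp597 and Kif1bp, the groups overlapped and the edgeR adjusted p was 0.827 to 1. Of these, Mfsd4a and Zfp597 overlap a neighbouring gene (Elk4 and Zfp174).

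**Figure D4:**
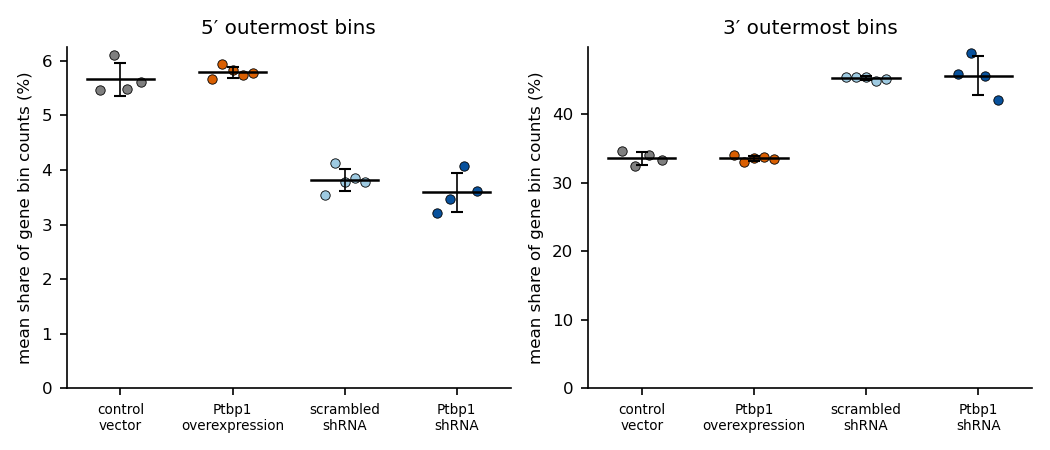
Mean share (%) of a gene's bin counts in its 5′ (left, 2130 bins) and 3′ (right, 7157 bins) outermost bin, 1 point per library, for the 4 groups; lines are means and error bars SD. Within each experiment the treated and control libraries overlap, and the silencing libraries lie lower at the 5′ end and higher at the 3′ end.

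Averaged over genes, the share of reads in the ends was not shown to differ between treated and control libraries in either experiment, and differed between the experiments. The 3′ outermost bin took 33.5% ± 0.946 of a gene's bin counts with the control vector (n = 4), 33.6% ± 0.370 after Ptbp1 overexpression (n = 5), 45.2% ± 0.263 with the scrambled shRNA (n = 5) and 45.6% ± 2.80 with the Ptbp1 shRNA (n = 4). By library the Ptbp1 shRNA group held 45.9%, 48.9%, 45.5% and 42.1%, so its highest and lowest libraries lay outside the scrambled range of 44.8% to 45.4% on both sides. The 5′ outermost bin took 5.66% ± 0.302, 5.79% ± 0.101, 3.82% ± 0.207 and 3.59% ± 0.356 in the same order of groups.

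Exact two-sided permutation tests over libraries were run for 6 pairs of groups at both ends, with Benjamini-Hochberg adjustment over the 12. Overexpression minus control gave 0.125 percentage points at the 5′ end (exact p = 0.405, adjusted 0.486) and 0.0184 at the 3′ end (exact p = 0.984, adjusted 0.984). Ptbp1 shRNA minus scrambled gave -0.224 (exact p = 0.262, adjusted 0.349) and 0.375 (exact p = 0.579, adjusted 0.632). Without Ptbp1 shRNA replicate 4 the latter was 1.54 and passed (adjusted exact permutation p = 0.0306), and without control replicate 2 the 5′ difference of the overexpression experiment was 0.27 and passed (adjusted exact permutation p = 0.0306). All 8 pairs across the experiments passed, with adjusted exact permutation p of 0.0159 to 0.0429. The scrambled shRNA minus the control vector was 11.7 percentage points at the 3′ end and -1.85 at the 5′ end. Vector and experiment cannot be told apart in those pairs.

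The direction was shared by most members. Between control vector and scrambled shRNA, 5749 of 7142 bins at the 3′ end (80.5%) had a higher mean share in the silencing libraries, by a median of 9.90 percentage points, and 1778 of 2126 at the 5′ end had a lower one. Members were chosen on counts of the overexpression experiment, which by itself favours lower shares in the silencing libraries, so the 5′ count is no independent support. The share over inner bins is not given here. Within the overexpression experiment 53.0% of the 3′ members had a higher share in treated libraries, with a median difference of 0.0763 percentage points. At the 5′ end 58.1% did, with a median difference of 0.0481. Within the silencing experiment 52.65% of the 3′ members and 41.8% of the 5′ members had a higher share with the Ptbp1 shRNA (median differences 0.246 and -0.0416). Across all lengths of 3′ bin the offset between experiments was present. Bins of up to 250 bp took 11.1% ± 0.370 with the control vector and 17.0% ± 0.557 with the scrambled shRNA (693 members, n = 4 and 5), those of 1000 to 2000 bp 37.8% ± 1.36 and 50.1% ± 0.664 (1498 members), and those over 4000 bp 53.3% ± 0.718 and 66.5% ± 0.754 (516 members).

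**Figure D5:**
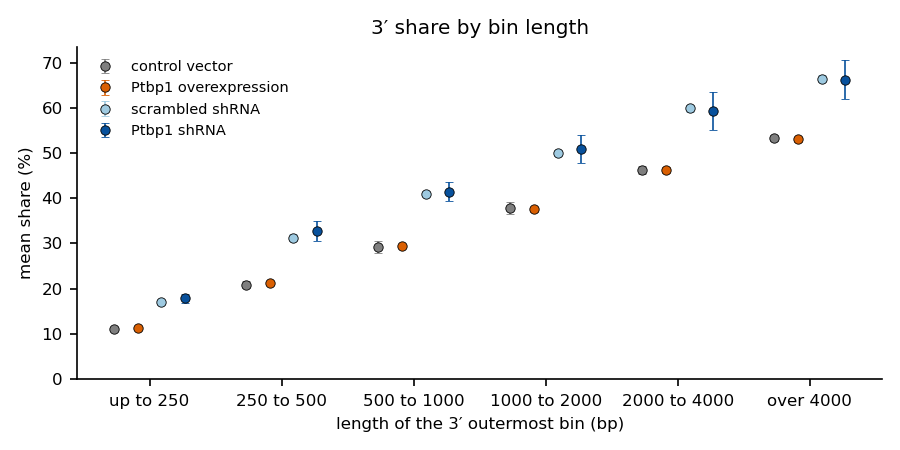
Mean share (%) of a gene's bin counts in its 3′ outermost bin by the length of that bin (bp), for the 4 groups; points are means over libraries and error bars SD. The share rises with length in every group, from 11.1% to 53.3% with the control vector, and the silencing groups lie above the overexpression groups in each length class.

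Per length, the 3′ bins were covered at a median of 0.940 times their gene's average with the control vector, 0.947 after overexpression, 1.30 with the scrambled shRNA and 1.31 with the Ptbp1 shRNA. The 5′ bins were covered at 0.329, 0.337, 0.124 and 0.101 times. The share of members with under 1% of their gene's counts was 25% at the 5′ end with the control vector and 53.6% with the scrambled shRNA. At the 3′ end, members with over 50% of their gene's counts made up 25.4% and 44.1%.

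The members were chosen on counts of the overexpression experiment, so a bin with few reads in the silencing libraries could enter and one with few reads in the overexpression libraries could not. In the silencing libraries 8.23% to 19.9% of members were at 0 counts, against 0% to 0.258% in the overexpression libraries. At the 5′ end alone, 22.2% to 42.4% were at 0 in the silencing libraries. When the minimum was set on the silencing libraries instead, a choice made after seeing the data (1388 and 7658 bins at the 5′ and 3′ ends), the scrambled minus control difference was -0.91 percentage points at the 5′ end and 11.8 at the 3′ end. The 5′ difference thus depended on how the members were chosen, by over 1.5 times, while its direction held (adjusted exact permutation p = 0.0317). Library evenness also differed between the experiments, with 1.24% to 8.3% of bins that averaged at least 50 counts over all libraries at 0 in the silencing libraries and 0.0213% to 0.0551% in the others. The neuronal list also differed between the experiments, at 22660 to 27130 CPM with the control vector and 18820 to 23900 after overexpression, against 55810 to 68070 with the scrambled shRNA and 36510 to 61010 with the Ptbp1 shRNA. The oligodendrocyte list took 114 to 125, 122 to 162, 60.2 to 104 and 53.3 to 96.2 CPM in the same order, and the vessel list 1.29 to 16.0, 2.39 to 12.4, 0 to 0.398 and 0 to 4.69. The astrocyte, interneuron and microglial lists overlapped between the experiments. The part of evenness and of these lists in the offset was not tested.

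The response to overexpression and to silencing was also compared directly, in 1 fit of all 18 libraries. Of 8854 members tested, 2 were called, beside 116 of 138200 bins over the table (0.0839%). The 5′ bin of Schip1, a cytoskeletal adaptor at the axon initial segment, and the 3′ bin of Ap2m1, a subunit of the clathrin adaptor AP-2, were the 2, and both rested on single silencing libraries. Schip1 bin 1 had 0 counts in all 5 scrambled libraries and 1, 122, 0 and 0 with the Ptbp1 shRNA. Ap2m1 bin 33 had 7, 0, 2, 161 and 0 with the scrambled shRNA and 0 in all 4 Ptbp1 shRNA libraries. These genes were chosen after their values were seen. For Ptbp2, Dtna and Cdc42 the difference between the responses was -1.69, -0.08 and 0.58 in log2 usage, with edgeR adjusted p = 0.21, 1 and 1, so their response was not shown to differ between the experiments.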

How the data were processed

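RNA-seq bin counts were analysed for 18 mouse TRAP libraries. The authors deposited, per library, raw counts of reads per exon bin, and tables of counts per gene. Per the submitters' processing notes, STAR 2.5.3a, HTSeq and the mm10 build were used, with no role stated; their annotation release and strand setting are unknown here. The values are whole numbers with no normalization. Reads in no bin were left out. Per library they made up 43.3% to 48.5% of the sum of bin counts, reads marked ambiguous and reads in no bin. Members and gene lists were chosen with earlier results of these data known.

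Relative usage was fitted across all bins, joined genes included, with edgeR 4.0.16 in R 4.3.3 (TMM scaling, filterByExpr, glmQLFit and diffSpliceDGE, converted to log2), within each experiment, and p-values were adjusted over all bins tested at 0.05. A positive value is a higher share in treated libraries. The difference of responses used 1 fit of all libraries. limma 3.58.1 voom and a DESeq2 1.42.0 model of each bin against the rest of its gene were alternatives; the log2 values of both are taken against the remaining bins and run larger. The share of a bin is the percent of its gene's bin counts in a library, and shares were compared with exact two-sided permutation tests. Intervals are SD over libraries, each from 1 mouse.

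Gene symbols, strand, coordinates and transcript sequences came from GENCODE M21 (GRCm38, the assembly of mm10), whose transcripts were merged into bins again. Bin numbers matched for 31209 of 34765 single-gene identifiers (89.8%), and coordinates were used only there. The named bins were the ends of Ptbp1, Ptbp2, Ptbp3 and Mapt, the called ends (up to 12 in each direction), the 10 smallest p where fewer than 5 were called, and called members of the lists. Alternatives were other scaling, no filter, other tools, leaving out libraries, and other member rules. No sample was left out. Coverage of the silencing libraries was far less even.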

Additional observations from a re-analysis of the deposited data

Results flagged for a closer look

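Among 58 groups of 4 or 5 libraries checked for a library far from the rest, 10 had one. The limit used is passed by chance in about 1 in 20 groups of normally spread values; these bins were mostly named for small p and many groups lay near 0 counts, so that rate is only a rough guide. In the overexpression experiment these were control libraries. Control replicate 1 held 58.0% of Mapt in bin 36, where the others held 40.3% to 42.1%. Control replicate 4 stood apart in both other bins. It held 0.72% of Pknox2 in bin 1 against 0.138% or less, and 0.596% of Cadm1 in bin 26 against 1.485% or more.

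In the silencing experiment, 4 of the scrambled or shRNA libraries that stood apart were those with reads where the rest of the group had few or none. The scrambled replicate 4 held 0.642% of Abcf3 in bin 1 (0 in the other 4) and 4.46% of Mfsd4a in bin 1 (0.500% or less in the others), and scrambled replicate 1 held 2.53% of Ndufaf4 in bin 10 (0.978% or less). The Ptbp1 shRNA replicate 2 held 52.5% of Mfsd4a in bin 1 (2.08% or less) and 0.145% of Car11 in bin 1 (0 in the other 3), and replicate 3 held 6.90% of Kif1bp (0.0166% or less) and 0.127% of Anks1b (0.0454% or less), each in bin 1.

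The responses to overexpression and silencing differed, by the edgeR test of the difference, for Ap2m1 bin 33 (8.71 in log2 usage, adjusted p = 0.0268) and Schip1 bin 1 (-9.25, adjusted p = 0.00703). In both, a silencing group was at 0 in all its libraries, so the fitted size depends on the small count added by the fit and is no bound.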

How the results depend on the processing

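Shares of all bins called under the alternatives are not given here, so the counts below do not compare ends with other bins. The 4 called ends of the overexpression experiment stayed at 4 with RLE scaling and were 6 without a filter, 3 with a mean of 50 counts and 3 in genes with 10 or more bins. They numbered 9 in the DESeq2 model (3 of the 4 among them), 11 in limma voom (all 4), 2 without the 2 least evenly covered libraries (Ptbp2 and Dtna), 0 when all 18 libraries shared 1 spread, and 3 to 6 leaving out 1 library. In the silencing experiment the 0 calls became 16, 2 and 139 in the DESeq2 model, limma voom and the 18-library fit, and stayed 0 leaving out any 1 library. The 2 calls of the difference became 4 in limma voom, neither of them kept, and 1 to 22 leaving out 1 library, an alternative chosen after seeing the data: 1 without each of the 9 overexpression and control libraries, 22, 11, 13 and 4 without Ptbp1 shRNA replicates 1 to 4, and 8, 10, 11, 10 and 5 without scrambled replicates 1 to 5.

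Differences of group shares that missed the threshold changed sign with processing, with 1 exception. Overexpression minus control at the 5′ end stayed positive in the settings run. At the 3′ end, overexpression minus control was -0.0035 percentage points with a mean of 50 counts, -0.0999 in genes with 500 counts in every library and -0.37 to 0.36 leaving out 1 library; Ptbp1 shRNA minus scrambled was -0.57 from pooled sums, -0.75 without the 2 least even libraries and -0.74 to 1.54 leaving out 1, the last (without Ptbp1 shRNA replicate 4) passing at an adjusted exact permutation p of 0.0306. At the 5′ end these were 0.0558 to 0.27 (passing without control replicate 2, adjusted exact permutation p = 0.0306) and -0.38 to -0.0994, or 0.0031 from pooled sums. All cross-experiment pairs kept direction and call in the settings run.

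Silencing values that missed the threshold and changed sign were Ptbp2 bin 14 (0.17 without Ptbp1 shRNA replicate 2, 0.07 without scrambled replicate 1, 0.22 without the 2 least even libraries; -0.28 to 0.17 leaving out 1), Mapt bin 36 (0.13, 0.06 and 0.02 without Ptbp1 shRNA replicate 3, scrambled replicate 3 and scrambled replicate 4; -0.29 to 0.13), Mfsd4a bin 1 (-0.48 without Ptbp1 shRNA replicate 2, -1.04 without the 2 least even; -0.48 to 7.15) and Kif1bp bin 1 (-2.94 in DESeq2, -0.65 in voom, -5.43 without Ptbp1 shRNA replicate 3; -5.43 to 3.63). The cause was not tested. No paired analysis was possible because replicate numbers were given in accession order and pair no animals. Counts of 0 were most frequent at the 5′ ends in the silencing libraries, although their total counts were mostly the larger ones.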
